A study of Arabidopsis thaliana with 3 samples.

Results

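A pair of Arabidopsis thaliana lines that carry MKK2 was compared, each on 1 array of leaf RNA. Both are in the background of Col-0, the common laboratory accession, and their leaves came from plants 2 weeks old. The array called line A here is titled Col-0-MKK2-w.t.4 and has EE4 in its source name. The array called line B is titled Col-0-MKK2-EE4 and has W.T.4 in its source name. The study's subject was MKK2 overexpressed as the wild-type and as a constitutively active protein. As the title and the source name contradict each other, only the lines are compared, and no direction between the proteins is given. The labels name neither the promoter of the transgenes nor the number of transformants behind a line. The lines make up 2 of the 3 arrays of the series. The remaining array, from untreated Col-0 without a transgene, serves as a reference level. Of 22810 deposited probe sets, 22746 were compared and 64 manufacturer's controls were left out. Each genotype has 1 array, so no value has a replicate error, no test was made, and a difference between the lines is a difference between these arrays.

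MKK2 is a MAP kinase kinase, the middle member of a cascade in which 1 kinase phosphorylates and activates the next. In Arabidopsis it passes cold, salt and immune signals on to the MAP kinases MPK4 and MPK6. Leaves under attack by microbes make the hormone salicylic acid, which switches on a large set of defence genes. Calcium influx, WRKY transcription factors and ubiquitin ligases act early in the same responses. Jasmonate and ethylene switch on other defence genes, among them the plant defensins.

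Signals on each array were scaled to a trimmed mean of 100, and signals under 25 were set to 25 before a ratio was taken. A ratio against a signal under 25 is thus a lower bound and is written "at least". At this floor 133 probe sets (0.585% of 22746) favoured line A by 2-fold or more, and 41 (0.18%) favoured line B. At 3-fold there were 21 (0.0923%) and 1 (0.0044%). At 1.5-fold the sides were nearly even, with 533 (2.34%) and 550 (2.42%). Line A thus held most of the differences of 2-fold or more. The 1.5-fold numbers include these, so between 1.5-fold and 2-fold more probe sets favoured line B than line A. The surplus on the side of line A depended on dim probe sets being held at the floor: with a floor of 10, 276 favoured line A and 346 line B.

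Among the 6397 probe sets whose higher line signal was at least 100, 73 (1.14%) favoured line A by 2-fold and 13 (0.203%) line B. At 1.5-fold these bright probe sets gave 275 (4.3%) and 160 (2.5%). At a higher line signal of 200 or more the 2-fold numbers were 38 and 3. The surplus in line A was therefore present among bright signals too. With both signals at 100 or more, 95% of 5597 ratios (the central ones) fell within 0.711-fold to 1.52-fold, a range that holds array noise and real differences alike.

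**Figure D1:**
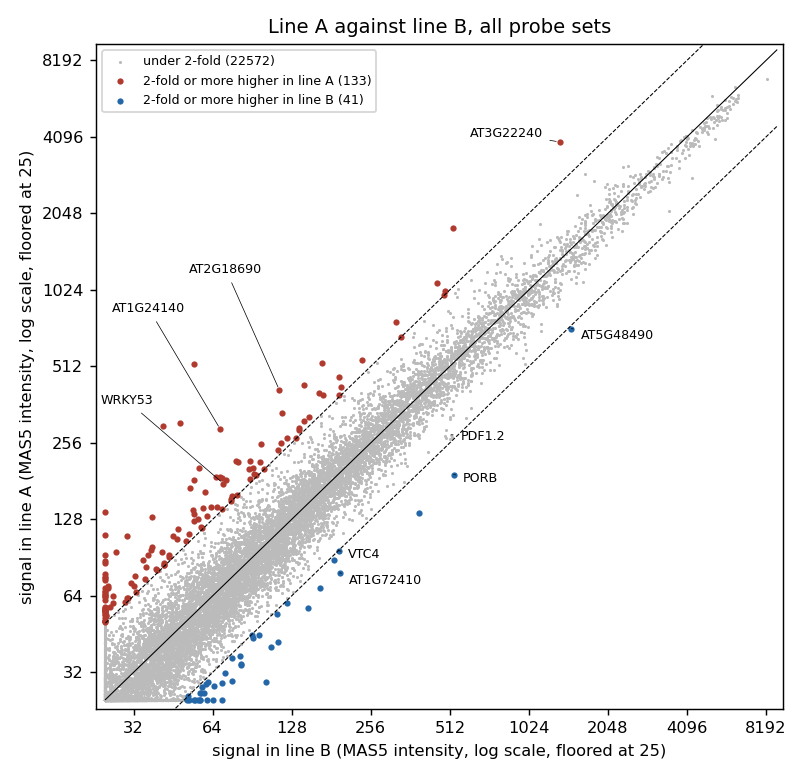
Signal in line A against signal in line B for all 22746 probe sets, in MAS5 intensity units on log scales with values under 25 set to 25. Each point is 1 probe set, the solid line marks equal signals and the dashed lines 2-fold; 133 points lie beyond the upper dashed line and 41 beyond the lower one.

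The median signal was 35.3 for Col-0, 31.5 for line A and 34.2 for line B, and 42.0% to 45.5% of probe sets lay under 25. None of the 64 controls differed 2-fold between the lines, but 29 of them were at or under the floor in both and could not. Of the other 35, 30 were higher in line A. Among these were all 14 probe sets of bioB, bioC and bioD, bacterial transcripts added to the samples as standards, with log2 ratios of 0.12 to 0.63 and a median of 0.28. Those of cre, another added standard, had log2 ratios of -0.01 to 0.11. The controls thus leaned the same way as the surplus in line A, and their part in it was not tested. The ratio of 3′ to 5′ signal of the actin, GAPDH and ubiquitin controls, a sign of RNA integrity, ran from 1.15 to 4.09 in line A and from 0.966 to 3.83 in line B. Line A had the higher of the ratios in 2 of these 6 controls, line B in 4. Leaf identity was checked by marker genes. The mesophyll genes RCA, LHCB4.1 and PSAE-1 had signals of 4324 to 5899 on the 3 arrays, and the 3 root markers with a named probe set (EXPA7, EXPA18 and NAI2) were under 25 on all of them. In leaf RNA, fewer cells of a type and less RNA per cell cannot be told apart.

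The genes below were named by rank: the 15 furthest toward each line, among probe sets that name 1 gene and have a signal of at least 100 in the higher line. Of the 13513 probe sets naming 1 gene, 56 (0.414%) favoured line A by 2-fold or more and 18 (0.133%) favoured line B. Roles are background knowledge. The groups of roles were put together after the values were seen, so their sizes have no background to be set against.

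Salicylic acid targets were among the furthest toward line A, and they differed in where Col-0 stood. AT5G03350, a lectin-like gene induced by salicylic acid, had a signal of 510 for Col-0, 434 for line A and 142 for line B, a 3.05-fold difference between the lines. AT3G22240 had 4485, 3909 and 1342, a 2.91-fold difference at very high signals. For both genes line A was close to Col-0, and line B stood apart as the low array.

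WRKY53, a transcription factor of defence and leaf senescence, was placed otherwise, with 70.0 for Col-0, 177 for line A and 70.3 for line B, a 2.52-fold difference. Here line B was close to Col-0 and line A was the high array. AT2G18690 had 211 for Col-0, 413 for line A and 115 for line B (3.59-fold), and AT1G10340, an ankyrin repeat gene, had 118, 170 and 52.5 (3.24-fold). In these last genes Col-0 lay between the lines.

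Of the 27 genes on the list of salicylic acid genes, only 7 have a named probe set, so the rest were not seen. All 7 were higher in line A, 5 of them 2-fold or more, with a median log2 ratio (line A over line B) of 1.54. Over all probe sets the median was 0, with 5862 above 0 and 7606 below. AT5G03350, AT3G22240, AT2G18690 and AT1G10340 were put on this list with their difference already known. Without these 4, the remaining members were WRKY53, the glutaredoxin GRX480 (log2 ratio at least 0.62, signals of 38.4 and 16.7) and SAG101 (at least 0.36, signals of 32.0 and 22.9). Their median of 0.62 is the bound of GRX480. A floor of 10 gave 1.21, and one of 50 gave 0. The last of these, a partner of the immune regulator EDS1, and GRX480 were dim in both lines.

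Genes of transcription and protein turnover formed a group of 5 among those 2-fold higher in line A. In all 5 Col-0 was nearer to line B, as it was in 37 (66.1%) of the 56 named genes toward line A. Differences between role groups in this placement were not tested. AT1G24140, which encodes a matrix metalloproteinase, an enzyme that cuts extracellular proteins, led all named genes. Its signal was 59.6 for Col-0, 289 for line A and 68.4 for line B, a 4.23-fold difference. PUB23, a U-box ubiquitin ligase that dampens pattern-triggered immunity, had 31.2, 202 and 88.1 (2.30-fold).

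AT1G33760, an AP2/ERF transcription factor gene, had a Col-0 signal of 2.99, far under the floor, against 253 in line A and 97.4 in line B (2.59-fold). AT3G02840, an ARM repeat gene, had 42.2, 144 and 63.0 (2.28-fold). Both PUB23 and AT1G33760 stood above Col-0 in either line, and further above it in line A. WRKY53, described above, is the remaining member.

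Calcium genes 2-fold higher in line A also numbered 5, and Col-0 was nearer to line B in 4 of them. AT3G01830, the calmodulin-like sensor CML40, had 19.3 for Col-0, 95.2 for line A and 27.4 for line B (3.48-fold). AT1G62480, a calcium-binding protein gene, had 244, 425 and 198 (2.15-fold), and AT5G66650, of the calcium uniporter family, had 26.2, 106 and 50.6 (2.09-fold). AT3G47480, the sensor CML47, was higher in line A by at least 2.64-fold, with 66.0 against 24.5. CML37 was at least 2.04-fold higher, with 50.9 in line A and signals under the floor in line B and Col-0.

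The family of calmodulin-like genes as the annotation names it has 7 members and does not contain CML40 or CML47, which are named there by locus tag. Of the 7, 6 were higher in line A and 1 lower, with a median log2 ratio of 0.64. CML38 had 28.0 for Col-0, 267 for line A and 170 for line B. CML23 had 49.7, 178 and 110, and CML42, a sensor expressed in leaf hairs and responsive to herbivores, had 148, 153 and 98.4. These 3 were 1.55-fold to 1.62-fold higher in line A, a smaller gap than that between either line and Col-0 for CML38 and CML23. With a floor of 50 the family's median was 0.025.

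Receptors, kinases and recognition proteins made up 10 of the genes 2-fold higher in line A, with Col-0 nearer to line A in 5 and to line B in 5. The 10 include AT5G03350 and AT1G10340 of the salicylic acid list, described above. AT5G25440 and AT5G47070 encode cytoplasmic kinases. AT5G25440 had 83.6 for Col-0, 129 for line A and 56.2 for line B (2.29-fold), and AT5G47070 had 82.3, 154 and 75.1 (2.05-fold). AT1G57630, which encodes a Toll/interleukin receptor domain found in plant immune receptors, was higher in line A by at least 3.03-fold, with 75.6 against 4.36 and 43.3 in Col-0.

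AT5G18470, a mannose-binding lectin gene, had 56.2 for Col-0 and 37.5 for line B and was 2.66-fold higher in line A. AT5G59680, a leucine-rich repeat receptor kinase gene, was higher in line A by at least 2.16-fold. AT4G03450, another ankyrin repeat gene, was 2.07-fold higher. AT5G05300, which encodes a peptide of the IDA-like kind, was 2.02-fold higher, and AT4G23610, of the NDR1/HIN1-like family, at least 2.21-fold.

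**Figure D2:**
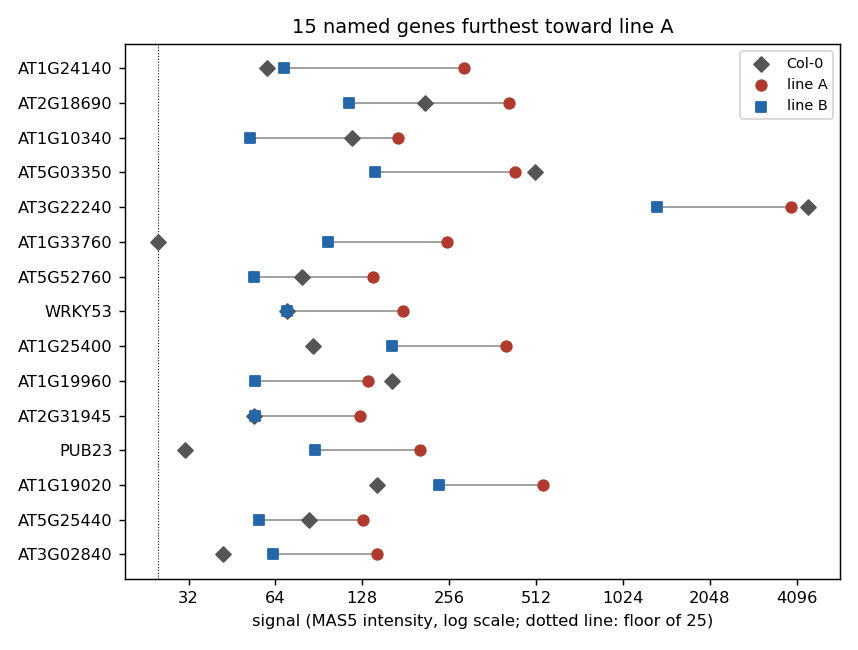
Signals of the 15 named genes furthest toward line A, in MAS5 intensity units on a log scale, with 1 symbol per array: Col-0 (diamond), line A (circle) and line B (square), and the floor of 25 as a dotted line. Col-0 sits beside or above line A for AT5G03350, AT3G22240 and AT1G19960, beside line B for AT1G24140, WRKY53 and AT2G31945, and below both lines for AT1G33760 and PUB23.

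Metabolic and redox enzymes higher in line A numbered 8, again with Col-0 nearer to each line in 4. CYP71B23, a cytochrome P450 gene, had 91.0 for Col-0, 83.1 for line A and 35.5 for line B (2.34-fold). AT5G52810 (SARD4), an enzyme of pipecolate synthesis in systemic immunity, had 81.0, 85.8 and 41.9 (2.05-fold). For both, line B was again the low array. AT3G60420 and AT3G60450, phosphoglycerate mutase family genes that lie 2 genes apart, were 2.11-fold and 2.02-fold higher in line A. AT5G35735, a gene with a cytochrome b561 domain, had 131, 192 and 93.5 (2.05-fold).

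Genes of lipid, metal and membrane transport numbered 6. AT5G55450, a lipid transfer protein gene, had 70.6 for Col-0, 77.7 for line A and 3.38 for line B, and so was higher in line A by at least 3.11-fold. AT5G52760 and its direct neighbour AT5G52750 encode proteins with a heavy metal-associated domain. AT5G52760 had 79.2, 140 and 53.9 (2.59-fold), and AT5G52750 had 164, 268 and 123 (2.19-fold). SARD4 lies 5 genes from AT5G52760, so 3 of the genes toward line A come from 1 stretch of the genome. AT2G39210, a major facilitator transporter gene, had 252, 293 and 136 (2.15-fold).

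Of 4 genes for sugar, chitin and cell wall enzymes, AT2G41640, a glycosyltransferase gene, had 41.8 for Col-0, 255 for line A and 117 for line B (2.18-fold). AT1G62660, a vacuolar invertase gene, had 88.8, 203 and 91.4 (2.23-fold). The chitinase gene AT2G43570, listed as CHI, had 67.4, 91.3 and 43.8 (2.08-fold). Another 17 named genes were put in no group by role, including AT2G18690 and AT3G22240 of the salicylic acid list. Of the 17, AT1G25400 had 86.6, 402 and 162 (2.48-fold) and AT1G19020 had 144, 541 and 236 (2.29-fold), both above Col-0 in either line. AT1G19960 had 162, 134 and 54.3 (2.48-fold), with line B low, and AT2G31945 had 53.7, 126 and 54.2 (2.32-fold), with line A high.

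Of the 133 probe sets toward line A, 74 name no gene here, and among probe sets over the floor in both lines they held the largest differences. Probe set 262832_s_at had 478 for Col-0, 523 for line A and 54.4 for line B, a 9.62-fold difference. Probe set 266385_at had 213, 299 and 41.4 (7.21-fold). In both, line B was far below the other arrays. The first of them can read more than 1 gene by its suffix. A further 3 of the 133 name several genes.

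Fewer genes stood 2-fold higher in line B, and they shared no single role. PORB, whose enzyme makes chlorophyllide from its precursor in the light, led the named genes with 435 for Col-0, 192 for line A and 529 for line B (2.76-fold). AT1G72410, related to a protein that binds the light-signalling regulator COP1, had 207, 78.8 and 195 (2.47-fold). AT3G50430, with no role given, had 109, 40.4 and 107 (2.64-fold). In PORB, AT1G72410 and AT3G50430 line A was the low array and line B was close to Col-0.

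AT5G48490, a lipid transfer protein gene, showed the opposite arrangement, with 631 for Col-0, 720 for line A and 1487 for line B (2.06-fold). VTC4, an enzyme gene of ascorbate synthesis, had 92.7, 96.2 and 194 (2.02-fold). XTH18, which encodes a cell wall enzyme that cuts and rejoins xyloglucan, had 18.7, 34.5 and 82.0 (2.37-fold). For these 3, line B was the high array.

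Genes of the nucleus and of RNA numbered 5 of the 18 toward line B. AT2G40430, a nucleolar protein gene, had 103 for Col-0, 59.9 for line A and 123 for line B (2.05-fold). AT1G16690, an enhancer of polycomb-like gene, was at least 2.30-fold higher in line B, AT4G09040, an RNA-binding protein gene, 2.19-fold, AT3G53170, a pentatricopeptide repeat gene, at least 2.2-fold, and AT1G67210, a spliceosome-associated gene, at least 2.17-fold. The higher signal of these last 4 was 54.2 to 58.0, so they rest on dim probe sets. Among chromatin factors named by symbol, HDA15, a histone deacetylase, had 82.1, 42.7 and 75.8, and INO80, a nucleosome remodeller, had 90.9, 53.3 and 94.6. Both were 1.77-fold to 1.78-fold higher in line B, while of the 11 genes named CHR, HDA or INO80, 8 were under 25 in both lines and 1 was higher in line A.

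Of the 15 named genes furthest toward line B, 7 reached 2-fold. The others that did were AT5G02830 with 79.7 for Col-0, 54.2 for line A and 113 for line B (2.08-fold), and those above. Under 2-fold stood AT4G01810, a gene of the Sec23/Sec24 coat of secretory vesicles, with 202, 66.5 and 129 (1.95-fold), and AT1G64380, an AP2/ERF gene, with 153, 67.2 and 123 (1.84-fold). In these last 2 genes both lines lay under Col-0, and line A further. AT4G01460, a bHLH transcription factor gene, had 67.3, 73.4 and 138 (1.88-fold), with line B high. AT2G34620, an mTERF organelle factor gene, had 374, 322 and 590 (1.83-fold), and AT1G78180, a mitochondrial carrier gene, had 155, 89.8 and 163 (1.82-fold). AT1G34630 and AT1G20070 were each 1.96-fold higher in line B. Toward line B the unnamed probe sets numbered 23, with 260431_at (84.4, 29.4 and 102) and 254232_at (84.8, 135 and 391) the furthest among those over the floor in both lines and at 100 or more in line B.

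**Figure D3:**
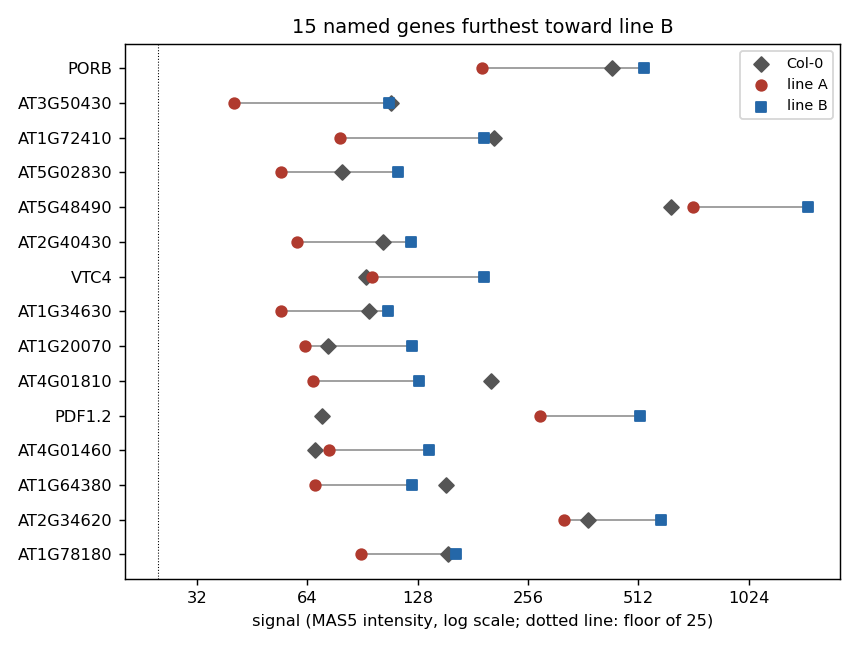
Signals of the 15 named genes furthest toward line B, in MAS5 intensity units on a log scale, with 1 symbol per array: Col-0 (diamond), line A (circle) and line B (square), and the floor of 25 as a dotted line. Col-0 sits beside line B for PORB, AT3G50430 and AT1G72410, beside line A for AT5G48490 and VTC4, and below both lines for PDF1.2.

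Defensins lay toward line B, on the other side from the salicylic acid genes. PDF1.2, a plant defensin induced by jasmonate and ethylene together, had 70.1 for Col-0, 275 for line A and 519 for line B, so line B was 1.88-fold above line A. Its close relative PDF1.2b had 139, 552 and 975 (1.77-fold). The suffix of the latter's probe set marks probes that can also read other genes, so these values may not be independent. Both lines stood above Col-0, and line B further. The other 3 defensins with a named probe set were under 25 in both lines. The jasmonate regulator ORA47 had 150.2, 150.1 and 249, also higher in line B. AT5G05600, an enzyme gene that inactivates jasmonate, had 27.7, 183 and 152, and EIN3, the master regulator of ethylene signalling, had 579, 504 and 418. The last pair was slightly higher in line A, so the genes of these hormones were split between the lines. The median log2 ratio was 0.08 over 3 jasmonate genes and -0.82 over 3 ethylene genes, of which 2 are the defensins.

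Lists of defence and calcium genes lay toward line A. Of 6 genes of pattern-triggered defence, 4 were higher in line A and 1 lower. Their median log2 ratio was 0.48 (0.29 with a floor of 50). PUB23 alone was 2-fold higher. PUB22, its close relative, had 17.1 for Col-0, 53.8 for line A and 27.0 for line B (log2 ratio 0.99). WRKY22, an immune transcription factor, had 45.0, 159 and 113, and BIK1, a kinase bound to immune receptors, had 101, 134 and 137. The receptor gene EFR was under 25 on all arrays. Touch and wounding genes numbered 5, of which 4 were higher in line A and CML37 2-fold. Their median of 0.64 (0.38 with a floor of 50) is the value of CML42, as in the calmodulin-like family, with which this list shares CML37, CML38 and CML42. EXO, a gene of cell expansion, had 117, 1602 and 1227, so the lines differed little from each other beside their distance from Col-0.

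WRKY factors numbered 6, with a median log2 ratio of 0.48 (0.091 with a floor of 50). WRKY47 had 72.1 for Col-0, 56.7 for line A and 38.5 for line B, and WRKY20 was the only one with a value below 0 (-0.18). U-box ligases numbered 9, with 6 higher in line A, 2 lower and a median of 0.14. Ubiquitin-specific proteases leaned the other way, with 2 of 12 higher in line A, 10 lower and a median of -0.14. Of 9 PRA1 genes, whose proteins act on Rab GTPases in vesicle traffic, 7 were higher in line A and 1 lower, with a median of 0.24. PRA1.B4 was at least 2.30-fold higher, with 57.4 in line A and signals under 25 in line B and Col-0. These families, like the others named by symbol, were taken from gene symbols after the data had been seen. They leave out genes annotated only by locus tag, which hold 11933 of the 13513 probe sets naming 1 gene. The 3 senescence genes were WRKY53, SAG101 and WRKY6, which had 34.7 in line A and was under 25 elsewhere. Their median of 0.47 is the bound of WRKY6, while floors of 10 and 50 gave 1.25 and 0, and a pseudocount of 16 gave 0.73.

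RALF-like genes encode small peptides that bind receptor kinases at the cell wall and alkalinise it. Of 11, 5 were under 25 in both lines. The other 6 gave 5 that were higher in line A by log2 ratios of 0.32 to 0.57 and RALFL24 at 0.00. RALFL22 had 133 for Col-0, 349 for line A and 239 for line B, and RALFL33 had 448, 799 and 602. RALFL32 had 114, 143 and 96.0. None of the 11 reached 2-fold.

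Cell wall loosening genes were mixed, with the larger differences toward line B. Of 18 expansins and expansin-like genes, 5 were higher in line A, 5 lower and 8 equal at the floor. The furthest were EXPB1 with 50.6 for Col-0, 21.4 for line A and 48.7 for line B, EXPA15 with 47.3, 40.7 and 69.1, and EXPA8 with 555, 318 and 513. All 3 were higher in line B. The log2 ratio was -0.76 for EXPA15, -0.69 for EXPA8 and, against the floor, at least 0.96 in size for EXPB1 (-0.96). Of 9 xyloglucan endotransglucosylases, XTH18 was 2-fold higher in line B, and XTH16 had a log2 ratio of 0.71 toward line A, with 26.0, 50.8 and 31.0.

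Genes of chlorophyll synthesis and light signalling lay toward line B, by small ratios except for PORB. All 6 with a named probe set were lower in line A, with a median log2 ratio of -0.25. HYH, a bZIP factor of light signalling, had 154 for Col-0, 123 for line A and 167 for line B, and CHLM, a methyltransferase of the pathway, had 2155, 1884 and 2331. HEMA2, CHLI2 and GSA1 had log2 ratios of -0.19, -0.10 and -0.04. Of 9 nuclear genes of light harvesting, photosystems and carbon fixation, 8 were lower in line A, by log2 ratios of at most 0.23 in size, with a median of -0.13. That median was -0.019 under quantile normalization, so the offset of these bright genes depended on scaling. The 3 mesophyll markers had a median of -0.10 (0.025 under quantile normalization).

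Genes of the plastid genome numbered 69, and 0 of them reached 2-fold either way. The median of their log2 ratios was -0.04, with 26 above 0 and 42 below. Single genes stood away from the rest in both directions. The transcript of psbA, the D1 protein of photosystem II, had 3297 for Col-0, 2934 for line A and 1674 for line B (1.75-fold higher in line A). That of psbK, a small subunit of the same photosystem, had 1757, 2093 and 3481 (1.66-fold higher in line B). Mitochondrial genes numbered 16, with 9 higher in line A, 2 lower and a median of 0.07. The complex I genes nad4 and nad4L led, with 329, 451 and 273 for nad4 and 31.6, 55.8 and 23.9 for nad4L, which was higher in line A by at least 2.23-fold.

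Other lists showed small medians when all members were used. The median log2 ratio was 0.11 over 5 cold response genes, 0.07 over 4 genes of abscisic acid, salt and drought, -0.09 over 4 flavonoid genes, 0.06 over 3 glucosinolate genes, 0.00 over 6 auxin genes, 0.00 over 3 brassinosteroid and gibberellin genes and -0.03 over 3 cell division genes. Few members of these lists were bright. With only members at 100 or more in a line, the median was 0.47 over 2 cold response genes and 0.44 over 2 glucosinolate genes. The 1 such gene had 0.33 on the abscisic acid list, 0.38 on the brassinosteroid and gibberellin list and -0.24 on the flavonoid list. No auxin or cell division gene was that bright. STZ, a zinc finger repressor of stress responses, had 599 for Col-0, 2751 for line A and 1805 for line B (log2 ratio 0.61). COR15B, a chloroplast cold-protection gene, had 59.7, 51.8 and 82.2, a log2 ratio of -0.67. BCAT4, of glucosinolate synthesis, had 238, 321 and 182, a log2 ratio of 0.82. SWEET sugar carriers numbered 14, of which 2 were higher in line A and 9 lower, with line A under 25 in 6 of these and a median of -0.16, and SWEET17, a vacuolar fructose carrier, had 140, 324 and 216. No member of the MAP kinase cascade and heat shock lists has a probe set named here, so MKK2, MPK4 and MPK6 are not described.

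**Figure D4:**
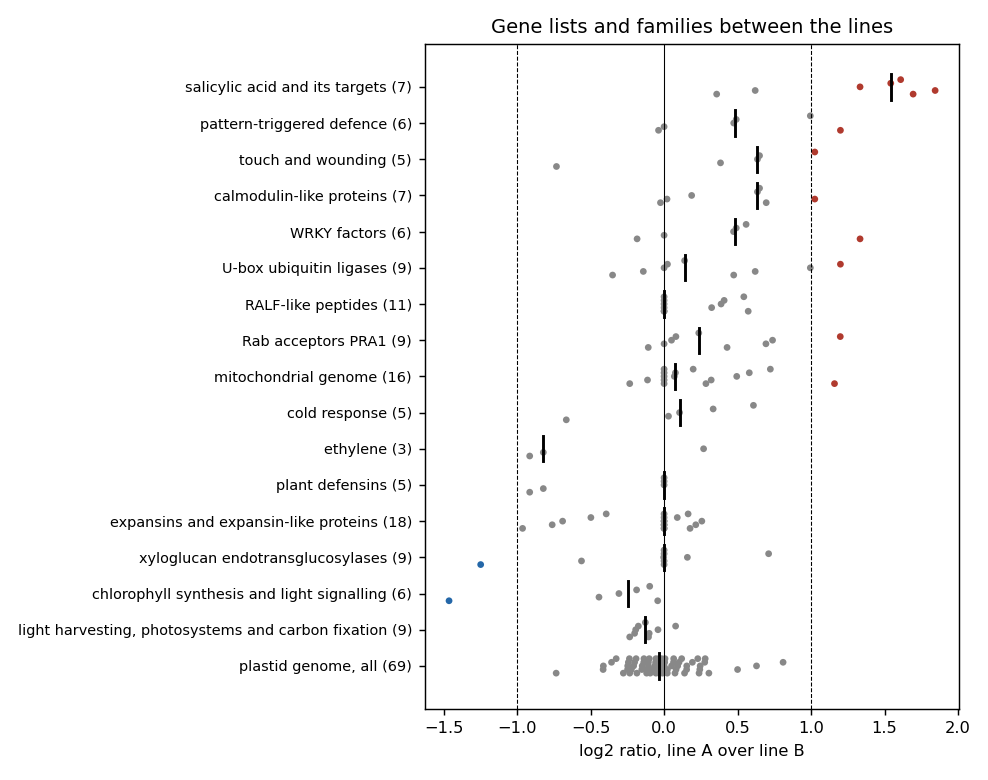
Log2 ratio of line A over line B for each member with a named probe set of 17 lists and families, the number of members in brackets. Each point is 1 gene, the short black line is the median of the list, and the dashed lines mark 2-fold; 4 of the 7 salicylic acid genes were listed with their difference already known (median 1.54 with them and 0.62 without), and PORB and XTH18 lie furthest left.

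The reference array showed which line stood apart. Over all 6397 bright probe sets Col-0 was nearer to line A in 51.9% and to line B in 48.1%. Among the 133 probe sets higher in line A, Col-0 was nearer to line B in 82 (61.7%) and to line A in 51 (38.3%). It lay between the lines in 80, above both in 18 and below both in 35. Line A was 2-fold or more above Col-0 in 54 of the 133, while line B was 2-fold or more below it in 33 and above it in 9. In the main setting, the probe sets toward line A thus held a larger group with line A high and a smaller group with line B low. This order was reversed at 3-fold, where Col-0 was nearer to line B in only 9 of 21. With a floor of 10 the groups were nearly even (nearer to line B in 143 of 276). The other settings kept the order, from 70 of 127 with a pseudocount of 16 to 47 of 73 with a floor of 50.

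Among the 41 probe sets higher in line B, Col-0 was nearer to line B in 27 (65.9%) and to line A in 14. Line A was 2-fold or more below Col-0 in 11 of them, and line B was 2-fold or more above it in 10. For comparison, line A exceeded Col-0 by 2-fold or more at 318 of the 22746 probe sets (1.4%) and fell short of it at 89 (0.391%). For line B these numbers were 214 (0.941%) and 122 (0.536%). Both rest on the same single Col-0 array.

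**Figure D5:**
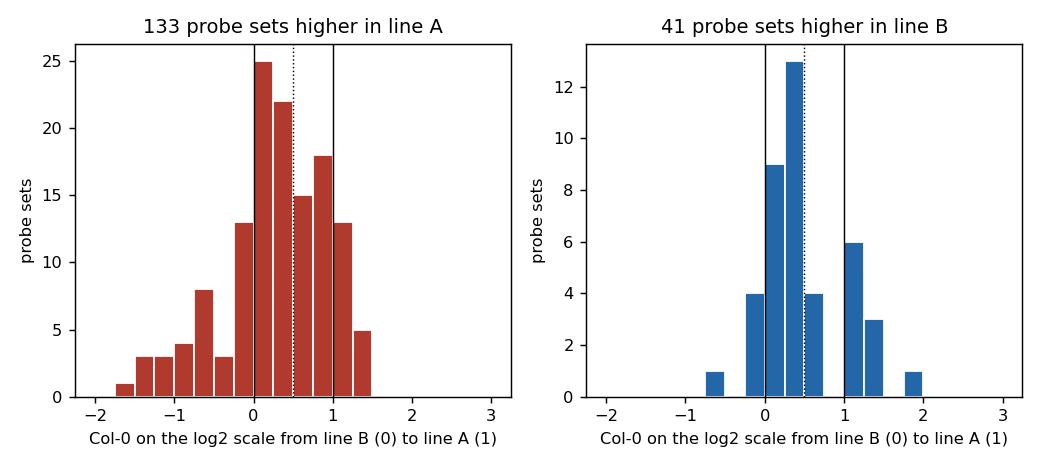
Place of Col-0 between the lines, on a log2 scale on which 0 is line B and 1 is line A, as numbers of probe sets per bin, for the 133 probe sets toward line A and the 41 toward line B (2-fold or more). The dotted line is the midpoint; 82 of the 133 and 27 of the 41 lie to its left, nearer to line B.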

How the data were processed

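RNA of leaves from 3 genotypes, 1 sample each, was measured on Affymetrix arrays. For each array the authors deposited linear intensity values, 1 per probe set, made with MAS5, per the submitters' processing notes. Neither its version nor detection calls were used here. The trimmed mean (2% of probe sets left out at each end) was 100.01 on every array before it was set to 100 here. Scaling of this kind assumes the same bulk signal in each sample. Signals under 25 were set to 25, as MAS5 signals near background are imprecise, and log2 ratios were taken. The number of arrays limits the precision.

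Names of genes came from GEO's platform annotation, updated through the TAIR10.1 reference. Of the compared probe sets 13513 name 1 gene, 503 name several and 8730 name none, and 13436 of the first matched a reference locus. Names ending in _s_at, _x_at or the like, 1061 in all, can read several genes. Of 493 genes in 21 lists, 67 have a named probe set, and 15 lists have 3 or more. In a gene with several probe sets the brightest was used.

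Named genes are the 15 furthest each way that name 1 gene at a signal of 100 or more, and from each list the members furthest from 0 or at 100 or more that the text needs. Members and lists were chosen with earlier results of these data known. Role groups and symbol families were added after the data were seen. Promoter motifs and families by product name, also planned, were not run, as no sequences or product names were used here. The counting was tested on simulated data. Alternatives were other scalings, floors, thresholds and a pseudocount. Computations used Python 3.11.15, numpy 2.4.6, pandas 2.3.3, scipy 1.17.1, statsmodels 0.14.6 and matplotlib 3.10.9.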

Additional observations from a re-analysis of the deposited data

Results flagged for a closer look

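In 5 of the 30 genes named by rank, 1 line was above Col-0 and the other below it, each by a log2 ratio of at least 0.5. Some genes outside these 30, among them AT1G57630 (0.81 in line A and -0.79 in line B against Col-0), also met this rule. Of the 5, those higher in line A were AT2G18690 (log2 ratio of line A over line B 1.84), AT1G10340 (1.69), AT5G52760 (1.37) and AT5G25440 (1.19). AT5G02830 was higher in line B (-1.06). The difference between the lines was not tested, since each has 1 array.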

How the results depend on the processing

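No paired analysis was possible because each group has 1 array, and leaving out an array would leave no comparison. The deposited scale gave the same 133 and 41 probe sets, and quantile normalization, loess centring, a pseudocount of 16 and leaving out suffixed probe sets gave 124 to 155 higher in line A and 29 to 54 in line B. Under the pseudocount only 81 of the 133 and 15 of the 41 were shared with the main setting. The share higher in line A was 76.4%, and it was 82.4% under quantile normalization, 84.2% under loess, 70.2% with the pseudocount, 44.4% with a floor of 10 and 49.2% at 1.5-fold. A floor of 10 gave 276 and 346 (Col-0 nearer line B in 143 and 225), and a floor of 50 gave 73 and 13 (47 and 9). A higher signal of at least 100 gave 73 and 13 (46 and 9). A threshold of 1.5-fold gave 533 and 550 (301 and 328), and 3-fold gave 21 and 1 (9 and 1). Among probe sets higher in line B, Col-0 was nearer line B in 16 under quantile normalization and 17 under loess, against 27. The mesophyll median of -0.10 was 0.025 under quantile normalization. The cause was not tested, beyond the fewer probe sets that the stricter settings keep. Of 180 values of the 30 named genes under alternatives, 177 moved by less than 0.234 on the log2 scale, the half-width of the central 68% of bright probe sets, and none changed sign. Of 391 values of lists and families, 27 moved further. Under the pseudocount, 4 of the 15 named genes toward line B were 2-fold, against 7. Salicylic acid genes without the 4 known to differ had a median of 0.00 with a floor of 50. Most probe sets near the floor cannot show a difference of 2-fold.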
